A study of Rattus norvegicus with 6 samples.

Results

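The collagen gene family was followed across 6 rat microarrays that set infarcted hearts injected with adipose-derived stem cells (ADSCs) beside control hearts and beside the cultured cells themselves. A gene was a member when a non-control probe carried a RefSeq accession that maps to a rat symbol of the form Col, number, a, number. This took 31 of the 30367 probes and 21 of the 15443 genes that could be named. The RefSeq gene table lists 44 collagen symbols, and the other 23, among them Col4a2, Col6a1 and Col6a3, were not named on the array by this route and are not analysed here.

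All arrays held RNA from Sprague Dawley rats aged 13 weeks, with no transgene or deletion named for any group. Myocardial tissue came from a sham-operated rat (1 array), from a rat with myocardial infarction (MI) whose heart muscle was injected with phosphate-buffered saline (PBS, 1 array), and from infarcted hearts injected with ADSCs carrying 124I-HIB, a radioactive lipid-like tracer (hexadecyl-4-124I-iodobenzoate; 2 arrays, numbered replicates 1 and 3). The labels date all this tissue to day 21, counted from a sham operation also for the infarcted hearts. They do not say which zone of the heart was taken, or whether the treated arrays came from separate animals, so the spread between them may be technical. ADSCs without the tracer (1 array) and with it (1 array) were collected after 14 days of culture. No infarcted heart given unlabelled cells is among the arrays. In bulk RNA, fewer cells of a type and less RNA per cell cannot be told apart.

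Collagens are the main structural proteins of the extracellular matrix, and each is a helix of several alpha chains that may come from different genes. The fibrillar collagens (types I, II, III, V and XI) form the banded fibres that carry tensile load. Other classes line basement membranes (type IV), form beaded filaments (type VI), decorate fibre surfaces (types IX and XIV) or bridge basement membranes and stroma (types XV and XVIII). In the heart, fibroblasts make most type I and type III collagen, and a healed infarct is largely a scar of these fibres.

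Levels are log2 processed signals minus the 75th percentile of the same array, so a level of 0 is the signal that 3 in 4 spots stay below. That percentile was 771.9 on the sham array, 1058 to 1276 on the other myocardial arrays, and 2360 and 2615 on the cell arrays. Between 64.4% and 69.4% of probes were well above background, and no spot was saturated. A collagen was taken as measured in a comparison when its probe was well above background on every array compared. Levels of different genes come from different probes and are not set against each other. The summed linear levels of marker lists do add such probes, so the brightest genes weigh most in them. On the myocardial arrays all 6 markers of ventricular and general cardiomyocytes were well above background, with a summed linear level of 1210 to 1870 times the percentile against 2.58 and 2.69 in the cells. On the cell arrays all 4 mesenchymal stromal markers were well above background. Thy1 was so on no myocardial array, while Nt5e, Eng and Cd44 were so on all of them, and Eng was not higher in the cells (mean difference -0.24). Of the 3 blood markers, Ptprc was not well above background in the cells. Alas2 and Slc4a1 were, at levels 257-fold and 33.8-fold below every myocardial array.

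Of the 21 collagens, 15 were measured on all 6 arrays, 16 on all 4 myocardial arrays and 17 on both cell arrays. Col13a1, a transmembrane collagen, was not well above background on any array. Col4a4, a basement membrane chain, was measured only in myocardium, and Col11a1, a fibrillar chain, only in the cells. Col23a1, also a transmembrane collagen, was well above background only on the PBS array and on treated replicate 1. Col26a1 was well above background only in labelled cells, and Col7a1, the anchoring fibril collagen, everywhere except on treated replicate 3.

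**Figure D1:**
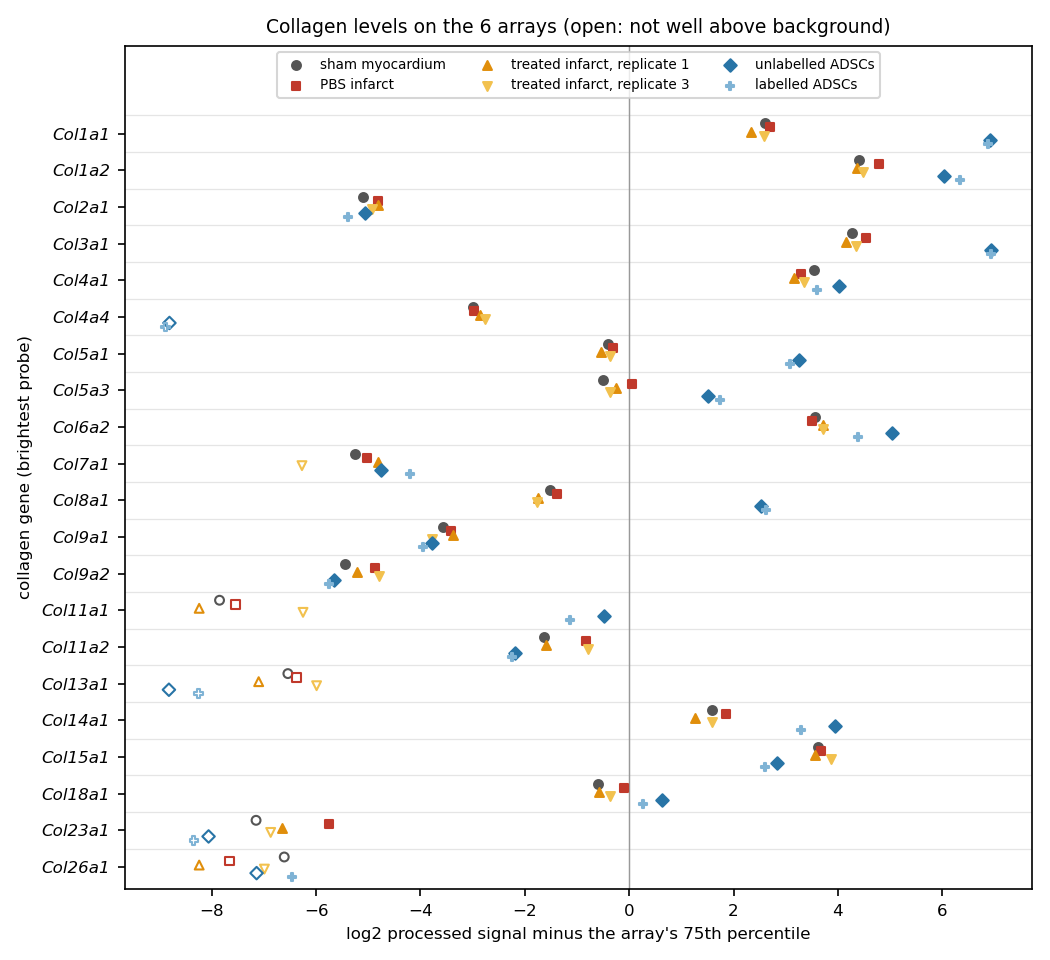
Level of each of the 21 collagen genes (rows) on each of the 6 arrays, as log2 processed signal minus the array's 75th percentile (x axis). Filled symbols are well above background and open symbols are not; the cell arrays (blue) sit right of the myocardial arrays for genes such as Col1a1, at 6.91 and 6.88 against 2.34 to 2.70.

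The first question was how the collagens of the injected cell type differed from those of myocardium, over the sham, PBS and treated arrays together. The cultured ADSCs had far higher levels of the interstitial fibrillar collagens: the mean over both cell arrays exceeded the mean over the 4 myocardial arrays by 4.34 for Col1a1, 3.57 for Col5a1, 2.60 for Col3a1, 1.90 for Col5a3 and 1.69 for Col1a2 (log2 differences). Col8a1, a short-chain collagen of the vessel wall, was higher by 4.18, and Col14a1, which sits on the surface of type I fibres, by 2.04. Both cell arrays lay at least 2-fold above every myocardial array for these 7 of the 15 measured collagens, where 14.2% of all 15886 measured features did so. None of the 15 lay 2-fold below, where 15.9% of all features did. The median difference was 1.08 over the 15 collagens and 0.03 over all features. With 1 array for each kind of cell and different 75th percentiles in cells and tissue, this comparison has no test.

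Col1a1, the alpha 1 chain of type I collagen, stood at 6.91 in unlabelled and 6.88 in labelled cells, against 2.61 on the sham array, 2.70 on the PBS array, and 2.34 and 2.58 on the treated arrays. The lower cell array was 18.2-fold above the highest myocardial array. Its partner in the type I helix, Col1a2, stood at 6.04 and 6.35 in unlabelled and labelled cells, against 4.40 (sham), 4.79 (PBS), 4.37 and 4.48 (treated replicates 1 and 3), a gap of 2.39-fold. The chains of the same protein thus both lay higher in the cells, with gaps of different width.

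Col3a1, whose product forms the fine fibres of compliant tissue, read 6.93 on both cell arrays and between 4.16 and 4.53 in myocardium, a gap of 5.27-fold. Type V collagen sets the diameter of type I fibres. Its chain Col5a1 stood at 3.25 and 3.09 in unlabelled and labelled cells against -0.54 to -0.31 in myocardium, a gap of 10.5-fold. Col5a3 stood at 1.52 and 1.74 in the cells against -0.50 to 0.05, a gap of 2.78-fold. In both genes the cell arrays were close to each other and the groups did not overlap.

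Col8a1 stood at 2.53 and 2.63 in unlabelled and labelled cells and at -1.51 (sham), -1.39 (PBS), -1.75 and -1.77 (treated) in myocardium, a gap of 15.1-fold. Col14a1 stood at 3.94 and 3.29 in the cells and between 1.27 and 1.86 in myocardium, a gap of 2.69-fold. Col11a1, which nucleates thin fibres in cartilage, read -0.49 and -1.14 in the cells and was not well above background on any myocardial array. Against the background limit of the tissue arrays it was at least 61.7-fold higher in the cells, and its 3 probes all read well above background on the cell arrays alone.

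Not every fibrillar chain followed. Col11a2, which shares the type XI helix with Col11a1, was lower in the cells, at -2.19 and -2.25 against -1.63, -0.83, -1.60 and -0.79 on the sham, PBS and treated arrays, with a mean difference of -1.01. Col2a1, the main collagen of cartilage, overlapped between the groups, at -5.07 and -5.38 in the cells against -5.10 to -4.81 in myocardium. Col9a1 and Col9a2, partners of type II fibres, differed by -0.33 and -0.62. Of these, Col9a2 did not overlap between the groups.

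The basement membrane chains split. Col4a4, a chain of specialised basement membranes such as those of the kidney, stood at -3.00 (sham), -2.98 (PBS), -2.86 and -2.77 (treated) and was not well above background in either cell array, so that it was at least 32.0-fold higher in myocardium. Col4a1, a chain of nearly all basement membranes, was higher in the cells by 0.47, at 4.02 and 3.60 against 3.16 to 3.54. Its less bright probe put that difference at 2.44, and with the mean of its probes Col4a1 joined the 7 genes 2-fold above every myocardial array. Col15a1 and Col18a1, both multiplexins of basement membrane zones, lay on opposite sides. Col15a1 read 2.84 and 2.61 in the cells against 3.56 to 3.86, a mean difference of -0.95, and Col18a1 read 0.63 and 0.27 against -0.60 to -0.10, a mean difference of 0.86. Col6a2, a chain of the microfilaments around cells, stood at 5.03 and 4.38 against 3.51 to 3.72, higher by 1.08 with no overlap but less than 2-fold between the nearest arrays.

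By any amount, both cell arrays lay above every myocardial array for 10 of the 15 collagens and below for 3, where the shares over all features were 41.3% and 38.9%. Among the 7 measured fibrillar chains these counts were 5 and 1, with a median difference of 1.90. The same 7 genes passed the 2-fold count without the PBS array, an alternative chosen after the data had been seen.

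**Figure D2:**
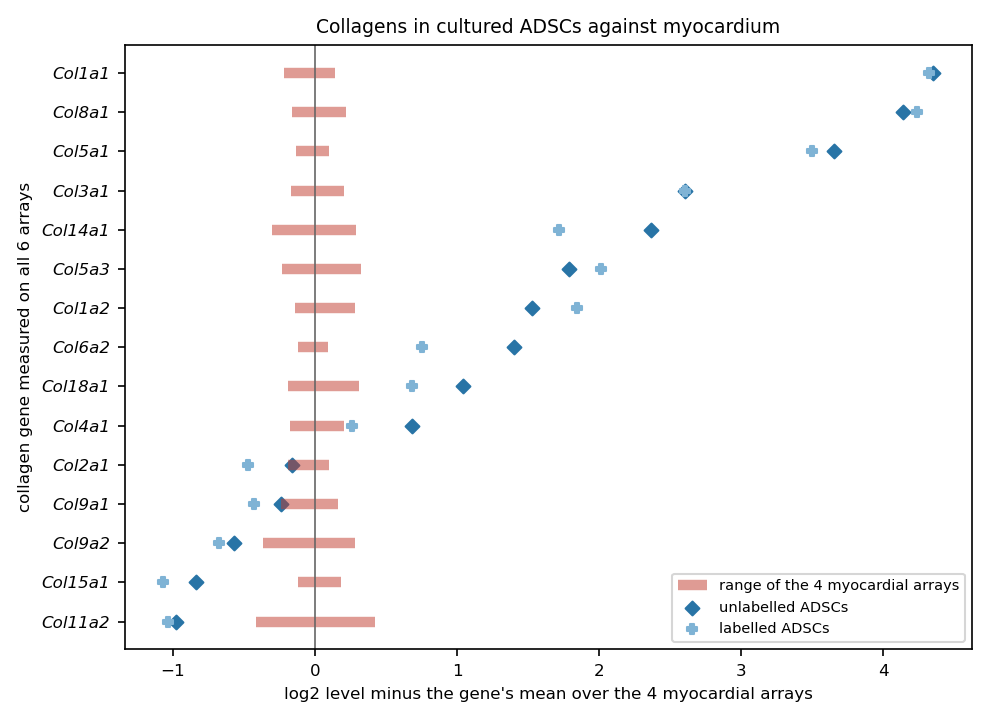
Level of each of the 15 collagens measured on all arrays, minus the gene's mean over the 4 myocardial arrays (x axis, log2), for unlabelled ADSCs (diamonds) and labelled ADSCs (crosses); red bars span the 4 myocardial arrays. Both cell arrays of Col1a1, Col8a1 and Col5a1 sit beyond 3 log2 units, while Col11a2 and Col15a1 sit near -1.

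The 250 bases before the RefSeq start site (build GRCr8) are shown for 4 collagens higher in the cells and for Col4a4, seen in myocardium alone. Start-site sequences of genes higher and lower in the cells are thus set side by side. Of the 4, Col1a2 had the smallest gap, 2.39-fold. A start-site window was found for 16 of the 21 members; Col1a1, Col2a1, Col3a1, Col6a2 and Col14a1 had none in the table. Capitals mark exact matches on either strand to 3 promoter motifs, the TATA box (TATAAA), the CCAAT box (CCAAT) and the GC box (GGGCGG). Overlapping matches count separately. The sequences run 5′ to 3′ along the gene: Col1a2 from chr4:33518307-33518556, Col5a1 from chr3:31606630-31606879, Col8a1 from chr11:56246532-56246781 and Col11a1 from chr2:204508886-204509135, all on the plus strand, and Col4a4 from chr9:91323578-91323827 on the minus strand.
Col1a2: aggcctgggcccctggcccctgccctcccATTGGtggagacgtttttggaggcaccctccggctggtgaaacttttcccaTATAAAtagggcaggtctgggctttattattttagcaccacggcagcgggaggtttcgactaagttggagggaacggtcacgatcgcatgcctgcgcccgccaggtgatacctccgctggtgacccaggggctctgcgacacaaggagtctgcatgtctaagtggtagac
Col5a1: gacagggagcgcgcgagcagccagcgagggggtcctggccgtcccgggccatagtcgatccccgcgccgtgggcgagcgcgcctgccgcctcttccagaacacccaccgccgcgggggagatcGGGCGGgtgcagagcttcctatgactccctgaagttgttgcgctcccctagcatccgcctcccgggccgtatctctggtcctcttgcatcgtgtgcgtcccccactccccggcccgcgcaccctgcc
Col8a1: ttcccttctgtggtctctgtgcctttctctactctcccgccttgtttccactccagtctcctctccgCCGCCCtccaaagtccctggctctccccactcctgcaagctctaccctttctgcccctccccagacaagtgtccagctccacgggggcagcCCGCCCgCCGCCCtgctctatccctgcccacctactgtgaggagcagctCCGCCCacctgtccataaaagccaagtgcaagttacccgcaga
Col11a1: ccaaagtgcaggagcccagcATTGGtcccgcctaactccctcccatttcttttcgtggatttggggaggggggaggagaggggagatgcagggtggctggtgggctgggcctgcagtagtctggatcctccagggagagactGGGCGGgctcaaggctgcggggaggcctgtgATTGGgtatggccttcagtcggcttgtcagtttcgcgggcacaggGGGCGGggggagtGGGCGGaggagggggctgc
Col4a4: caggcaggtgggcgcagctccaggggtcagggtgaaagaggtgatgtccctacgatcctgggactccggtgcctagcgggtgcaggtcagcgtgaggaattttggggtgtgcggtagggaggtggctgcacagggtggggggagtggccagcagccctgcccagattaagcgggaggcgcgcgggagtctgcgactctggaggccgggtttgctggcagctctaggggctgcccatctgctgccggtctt

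In the full windows of 300 bases, which end 50 bases after the start, the GC box was present in 9 of the 16 collagens and in 33.1% of all 33469 windows in the table. The CCAAT box was present in 4 of 16 against 37.5%, and the TATA box in 2 of 16 against 14.2%. The TATA box matches, in Col1a2 and Col13a1, began at positions -170 and -237 from the start. Col1a2 held a TATA box and a CCAAT box, Col5a1 1 GC box, Col8a1 4 GC boxes, Col11a1 3 GC boxes and 2 CCAAT boxes, and Col4a4 none of the 3 motifs. The GC content of 15 of the 16 windows lay between 49.3% and 74.3%, and that of Col4a1 was higher still, against a median of 51.7% in the table. Col4a4 and Col4a3 start head to head and their windows share 88 bases; those of Col4a1 and Col4a2 share 176. These matches describe letters in a window and were not tied to the levels by any measurement here.

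Genes that make, trim and remove collagen were compared in the same way. In the list of synthesis, folding and secretion genes 14 of the 18 measured were 2-fold above every myocardial array on both cell arrays, and 1 was below, where the shares over all features, for this list and the next 3, were 14.2% and 15.9%. Fkbp10, a chaperone of procollagen, showed a gap of 17.9-fold, Creb3l1, a transcription factor for type I collagen, 18.9-fold, and Plod2, a lysyl hydroxylase that prepares crosslinks, 10.1-fold. Tmem38b, an ion channel of the endoplasmic reticulum, was the gene 2-fold below, with a gap of 4.63-fold. Crtap and P3h2 also lay below every myocardial array on both cell arrays, by less than 2-fold (1.43-fold and 1.27-fold).

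Of the processing and crosslinking genes, 4 of 6 measured were 2-fold higher in the cells. They were the lysyl oxidase relatives Loxl1 (gap 16.9-fold), Loxl2 (9.91-fold) and Loxl3 (9.22-fold) and the procollagen peptidase enhancer Pcolce (13.0-fold). In the degradation list 6 of 8 were higher, among them the membrane collagenase Mmp14 (22.2-fold) and the inhibitor Timp1 (32.6-fold). Timp3, a matrix-bound inhibitor, was 19.2-fold lower. Of the collagen receptors, 4 of 6 were higher, with a gap of 5.65-fold for Ddr2, a fibroblast receptor tyrosine kinase for fibrillar collagen.

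The next question was whether collagen levels differed in the untreated infarct. On the PBS array 15 of 17 measured collagens were higher than on the sham array, where 44.5% of all 17255 measured features were higher, but the differences were small. The median was 0.22 for the collagens and -0.05 for all features. None of the 17 was 2-fold higher, where 2.23% of features were, and none 2-fold lower, where 1.44% were. With 1 array a side there is no test. As a yardstick, the difference between the treated arrays had an SD of 0.32 over all features, and 5 of the 17 collagens (29.4%) differed by more than that between PBS and sham, against 36.1% of all features.

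All 7 measured fibrillar chains were higher on the PBS array, with a median of 0.30. The differences of the main scar collagens were modest: 0.09 for Col1a1, 0.38 for Col1a2 and 0.25 for Col3a1. Col11a2 showed the highest, 0.80, from -1.63 on the sham array to -0.83 on the PBS array. The treated arrays read -1.60 and -0.79 for that gene, so they lay as far apart as the PBS and sham arrays did. Col5a3 was higher by 0.55, from -0.50 to 0.05, and stood at -0.26 and -0.37 on the treated arrays. The other 2 chains, Col2a1 and Col5a1, were higher by 0.30 and 0.10.

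Outside the fibrillar class, Col9a2 was higher by 0.58 on the PBS array and Col18a1, the precursor of endostatin, by 0.50. Col14a1 was higher by 0.28, Col7a1 by 0.22, Col9a1 by 0.16, Col8a1 by 0.11 and Col15a1 by 0.06. Col4a1 and Col6a2 were the 2 members lower on the PBS array, at -0.23 and -0.06, and Col4a4 differed by 0.02; with quantile normalisation Col6a2 and Col4a4 changed sign, to 0.08 and -0.04. Col23a1 was well above background on the PBS array and not on the sham array, at least 1.96-fold higher, on 1 of its 2 probes. Its other probe was not well above background anywhere. With normexp background correction 10 of 17 collagens were higher, against 30.3% of all features, and the median was 0.06 against -0.14. Under that correction, Col2a1 and Col9a2 changed sign, to -0.24 and -0.08, as did Col4a4, Col7a1 and Col9a1.

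Marker genes of other tissues also differed between these arrays. All 6 atrial cardiomyocyte markers were well above background on the PBS array. Their summed linear level there was 449 times the percentile, against 168 on the sham array and 165 and 142 on the treated arrays. Most of the sham sum was Myl4, which differed by -0.23 between PBS and sham. Myl7, Mybphl and Nppa were higher on the PBS array by 8.07, 6.84 and 3.70. Sln and Bmp10 were not well above background on the sham array. Mesothelial markers (4 of 4 on the PBS array) summed to 3.36 against 0.404, 0.387 and 0.449 on the sham and treated arrays. Of these, Wt1 differed by -0.07 between PBS and sham, and Msln, Upk1b and Krt19 were not well above background on the sham array. Chondrocyte markers summed to 0.362 against 0.0780 to 0.101, with Acan not well above background on any array, and Schwann cell markers to 1.34 against 0.488 to 0.891. Of the 4 tendon and valve markers, Fmod and Thbs4 were higher on the PBS array than on the sham array by 3.28 and 2.93. Scx went the other way, with a difference of -0.54, and Tnmd was not well above background on any array. The list, whose brightest gene in myocardium was Scx, summed to 10.4 on the PBS array against 11.2, 8.93 and 10.9. Blood markers (3 of 3 on every myocardial array) summed to 3.01 on the PBS array against 6.05, 5.89 and 6.62. Alas2 and Slc4a1 differed by -1.02 and -1.48 between PBS and sham. Ptprc differed by -0.20, and its PBS level of -1.72 lay above the treated levels of -2.16 and -1.88. The activated fibroblast and smooth muscle list (5 of 5 on the PBS array) summed to 4.77 against 2.42, 1.81 and 3.77. Of its genes, Acta2, Postn, Tagln and Myh11 were higher on the PBS than on the sham array, by 1.94, 1.55, 0.85 and 0.73. Cnn1 was not well above background on the sham array. Postn differed from the PBS array by -1.83 and -1.49 on treated replicates 1 and 3, and Acta2 by -1.29 and -0.53. By contrast the fibroblast list, 4 of 4 on every myocardial array, summed to 26.2 on the PBS array and 25.9 on the sham array. It summed to 19.3 and 21.6 on the treated arrays. Its brightest gene, Dcn, differed by 0.01 between PBS and sham, Pdgfra by 0.00, Tcf21 by 0.07 and Lum by 0.63. The part of these cell types in the collagen differences was not tested.

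The treated infarcts were then compared with the PBS infarct, the question being how hearts given labelled cells differed from hearts given saline. The type I, III and V chains, Col8a1, Col14a1 and Col18a1 were slightly lower on both treated arrays by their brightest probes. In total 9 of 16 measured members were lower on both treated arrays, where 34.2% of all 17338 measured features were, and 2 were higher on both, where 38.6% were. The 9 include Col2a1, whose difference on replicate 1 was below 0 but rounds to 0. The median difference was -0.20 (-0.32 and -0.11 for replicates 1 and 3) against 0.01 for all features. No collagen was 2-fold lower on both arrays, where 0.813% of features were, or 2-fold higher, where 0.45% were. In limma's moderated test over 19603 features, 0.0% had an adjusted p under 0.05, which is 0 features, and 1894 had an unadjusted p under 0.05. The test has 1 residual degree of freedom, from the treated pair, and assumes that the PBS and sham arrays vary like that pair. This comparison uses the same PBS array as the one with sham, so the higher values there and the lower values here are not independent.

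Among the fibrillar chains, 5 of 7 were lower on both treated arrays by more than rounding, and Col2a1 was so on replicate 3 alone. Col1a2 differed from PBS by -0.42 and -0.30 (mean -0.36 ± 0.08, SD, n = 2; limma adjusted p = 0.631). Col1a1 differed by -0.36 and -0.12 (-0.24 ± 0.17; limma adjusted p = 0.776) and Col3a1 by -0.37 and -0.18 (-0.27 ± 0.13; limma adjusted p = 0.728). By these probes all 3 scar collagens lay below the PBS array on both treated arrays, and none passed the test. The second Col1a1 probe lay above it, by 0.01 and 0.22. Col5a3 differed by -0.31 and -0.42 (-0.37 ± 0.08; limma adjusted p = 0.627), Col5a1 by -0.23 and -0.05, and Col2a1 by -0.11 on replicate 3. Col11a2 was lower on replicate 1 alone, by -0.77 against 0.05 on replicate 3.

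The other low values belonged to matrix surface and vessel collagens. Col14a1 had the lowest mean of the measured collagens, -0.43 ± 0.22 (limma adjusted p = 0.649), from -0.59 and -0.28. Col8a1 differed by -0.35 and -0.38 (-0.37 ± 0.02; limma adjusted p = 0.613), and Col18a1 by -0.48 and -0.26 (-0.37 ± 0.16; limma adjusted p = 0.658). The treated pair lay close together for Col8a1, more than for Col14a1. The fibroblast marker list was also lower on the treated arrays (19.3 and 21.6 against 26.2), and its part in these values was not tested. Col6a2 and Col4a4 were the members higher on both arrays, by 0.21 ± 0.01 and 0.16 ± 0.06. Col4a1, Col9a1, Col9a2 and Col15a1 had a treated array on each side of the PBS array. Col23a1 differed by -0.90 and -1.12 but not well above background on treated replicate 3, and it did not pass the test (limma adjusted p = 0.367, unadjusted p = 0.0104).

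**Figure D3:**
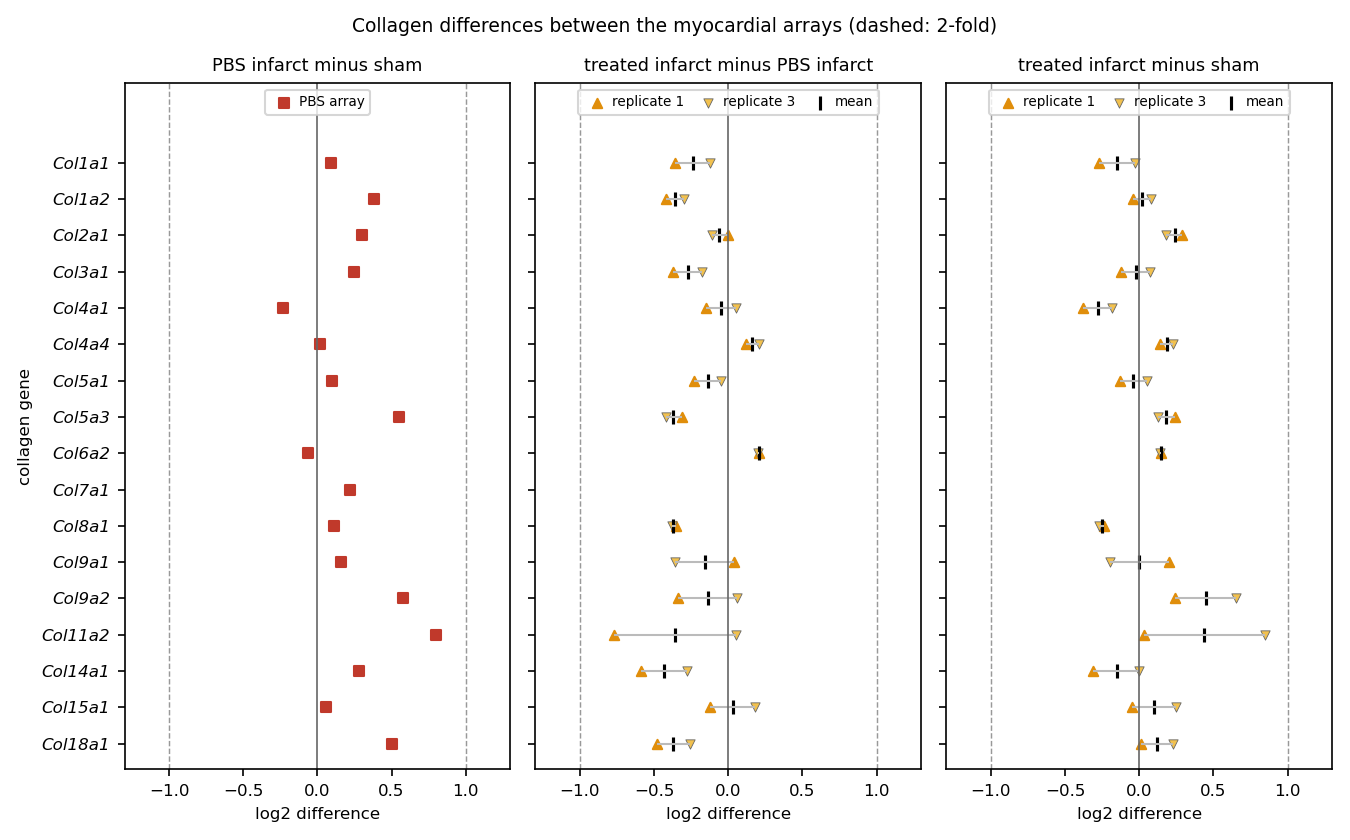
Log2 differences of 17 collagens (rows) between myocardial arrays: PBS minus sham (left), treated minus PBS (middle) and treated minus sham (right), with each treated replicate as a triangle and their mean as a bar. No point in the left panel lies beyond the dashed 2-fold lines, and in the middle panel Col14a1, Col8a1, Col5a3, Col18a1 and Col1a2 lie below 0 on both replicates.

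Against the sham array, the direction of the collagens in treated infarcts depended on the scaling. Of 16 measured collagens 7 were higher on both treated arrays and 4 lower, where 32.9% and 42.3% of all 17052 measured features were. With quantile normalisation 9 were higher and 2 lower, where 36.9% and 37.2% of features were, and with normexp 2 were higher and 8 lower, where 20.9% and 58.3% were. The median difference was 0.06 (-0.01 and 0.10 for replicates 1 and 3) against -0.04 for all features. No collagen was 2-fold higher or 2-fold lower on both arrays, where 0.581% and 0.393% of features were. Limma called 0 of 19603 features (0.0%), with 1886 at an unadjusted p under 0.05.

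Type I and type III chains of the treated hearts stood near the sham level, at -0.15 ± 0.17 for Col1a1, 0.02 ± 0.08 for Col1a2 and -0.02 ± 0.13 for Col3a1 (limma adjusted p = 0.804, 0.971 and 0.970). These SDs are as large as the differences or larger. The highest means were those of Col9a2 (0.45 ± 0.29), Col11a2 (0.44 ± 0.58), Col2a1 (0.24 ± 0.08), Col4a4 (0.19 ± 0.06) and Col5a3 (0.18 ± 0.08). The lowest were those of Col4a1 (-0.28 ± 0.14), Col8a1 (-0.25 ± 0.02), Col1a1, Col14a1 (-0.15 ± 0.22) and Col5a1 (-0.04 ± 0.13). No collagen passed the test in either treated comparison. The dim members Col2a1, Col4a4 and Col9a2 changed sign against sham with normexp correction.

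The probes of Col1a1, the main scar collagen, gave different readings on the tissue arrays. Both of its probes were well above background on all 6 arrays. The brighter, used throughout, read 2.61 (sham), 2.70 (PBS), 2.34 and 2.58 (treated replicates 1 and 3). The other read 1.06, 1.66, 1.68 and 1.89 on the same arrays. That second probe thus put PBS above sham by 0.61 and the treated arrays above sham by 0.62 and 0.83, where the brighter probe gave 0.09, -0.27 and -0.03. Against the PBS array it put the treated mean higher by 0.12, where the brighter probe gave -0.24. In the cells both probes stood far above myocardium, by 4.34 and 4.82. With the mean of both probes the treated-minus-sham difference of Col1a1 was 0.29.

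Among the other members with several probes, only Col4a1, Col11a2 and Col14a1 had more than 1 probe well above background on all 6 arrays, and these lay closer together for PBS minus sham. Col14a1's probes gave 0.28 and 0.44 for PBS minus sham and -0.43 and -0.37 for treated minus PBS. Col11a2's gave 0.80 and 0.58 for PBS minus sham, but -0.36 and -0.01 for treated minus PBS. Col4a1's gave -0.23 and -0.29 for PBS minus sham. Of the 3 probes of Col9a1, only the brightest was well above background on all arrays.

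**Figure D4:**
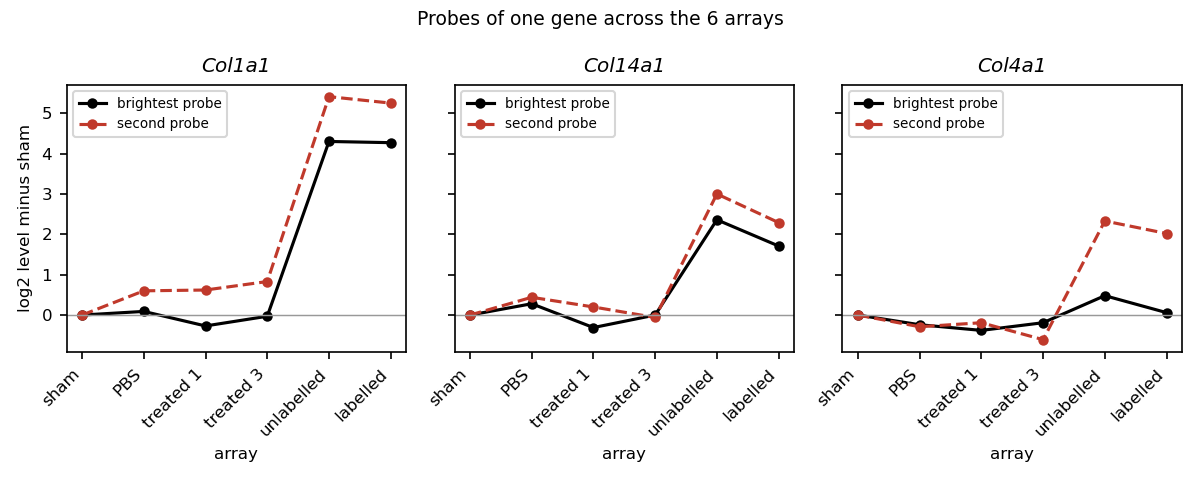
Level of each probe of Col1a1, Col14a1 and Col4a1 on the 6 arrays, minus the same probe's sham level (y axis, log2). The second Col1a1 probe (dashed) lies 0.61 to 0.83 above sham on the PBS and treated arrays, where the brightest probe (solid) lies between -0.27 and 0.09.

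In cultured ADSCs, no measured collagen differed 2-fold between labelled and unlabelled cells. Of 17 measured members 12 were lower in labelled than in unlabelled cells, where 56.1% of all 18271 measured features were, and the median was -0.16 against -0.04 for all features. None was 2-fold higher, where 0.449% of features were, or 2-fold lower, where 0.591% were. With quantile normalisation 10 of the 17 were lower in labelled cells, where 50.6% of features were. Each side is 1 array and there is no test.

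The main fibrillar collagens were close to equal: Col1a1 differed by -0.03 and Col3a1 by 0.00, while Col1a2 was higher by 0.31. The lower end held Col14a1 (3.29 in labelled against 3.94 in unlabelled cells, -0.65), Col6a2 (4.38 against 5.03, -0.65) and Col11a1 (-1.14 against -0.49, -0.64). For Col14a1 and Col11a1 every probe gave the same sign, -0.71 for the second Col14a1 probe and -0.53 and -0.69 for the other Col11a1 probes. Col4a1 followed at -0.41 and Col18a1 at -0.36. By class, 3 of 3 fibre-surface chains (types IX and XIV), both multiplexins and 5 of 8 fibrillar chains were lower in labelled cells, beside the same 56.1% of all features. With quantile normalisation Col9a2, of the first class, turned from -0.11 to 0.03 and the fibrillar count was 4 of 8.

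At the upper end, Col7a1, which anchors epithelium to its stroma, was higher by 0.56, Col5a3 by 0.22, Col8a1 by 0.10. Col26a1 was well above background in labelled cells alone, at least 1.59-fold higher, on 1 of its 2 probes. With quantile normalisation Col1a1 and Col3a1 stood higher in labelled cells, by 0.16 and 0.17.

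**Figure D5:**
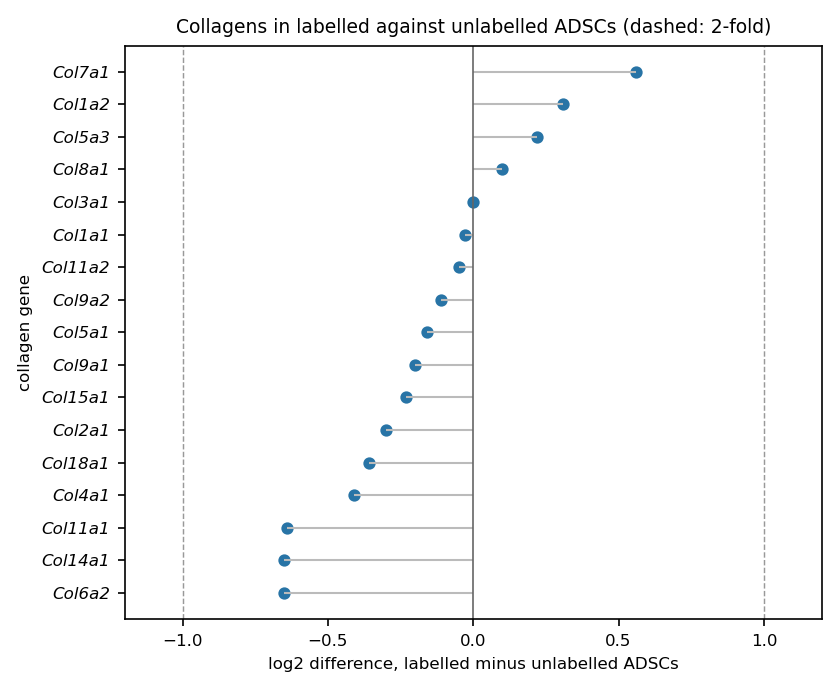
Log2 difference between labelled and unlabelled ADSCs (x axis) for the 17 collagens measured in both, 1 array each, sorted by size; dashed lines mark 2-fold. The values run from -0.65 for Col14a1 and Col6a2 to 0.56 for Col7a1.

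Between the hearts, the genes that make and remove collagen differed by less than 2-fold where measured, though Loxl1 and Mrc2 came near it. Over all features, 44.5% were higher on the PBS than on the sham array (median -0.05) and 34.2% lower on both treated arrays than on the PBS array (median 0.01). In the synthesis list 14 of 18 measured genes were higher in the first comparison (median 0.21), and 13 of 18 lower in the second (median -0.15). In the processing and crosslinking list these counts were 6 of 7 (median 0.29) and 6 of 7 (median -0.24). The 7 genes were not the same. Loxl4 was measured in the first comparison only (-0.45), and Tll2 in the second only, where it was higher (0.17 and 0.73). In the degradation list the counts were 6 of 8 (median 0.14) and 6 of 8 (median -0.39), and in the receptor list 5 of 6 (median 0.33) and 4 of 6 (median -0.27). No gene of the 4 lists was 2-fold apart in any comparison between myocardial arrays where it was measured, or between labelled and unlabelled cells. Genes not well above background on an array compared are left out of this. Among them, P4ha3 and Tll2 stood at -5.46 and -5.29 on the PBS array and were not well above background on the sham array (-7.17 and -6.76). As with the collagens, the counts higher than sham and lower than PBS rest on the same PBS array.

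Some of these genes, chosen after their values were seen, show the size of the differences. All those chosen were higher on the PBS than on the sham array and lower on the treated arrays than on the PBS array. Other genes went another way. Among them, Tmem38b, Ctsk and Ddr1 differed by -0.53, -0.35 and -0.32 between PBS and sham. Plod1 and Colgalt1 were higher on both treated arrays than on the PBS array, by means of 0.16 and 0.09. Loxl1, which crosslinks collagen and elastin, was higher by 0.77 on the PBS array than on the sham array and stood at -0.93 ± 0.06 on the treated arrays against the PBS array. Bmp1, the proteinase that trims procollagen ends, differed by 0.74 and -0.39 ± 0.10. Mrc2, the receptor through which fibroblasts take up collagen fragments, differed by 0.41 and -0.91 ± 0.04. Mmp14 differed by 0.38 and -0.58 ± 0.09. Serpinh1, the collagen chaperone of the endoplasmic reticulum, differed by 0.29 and -0.04 ± 0.01. The largest of these treated-minus-PBS values were larger than those of any measured collagen, the lowest of which was -0.43.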

How the data were processed

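Total RNA from the 6 samples was labelled with Cy3 and hybridised to 1-colour Agilent rat arrays, all on 1 slide and 1 scan. Per the file headers, the authors' files hold fluorescence intensity per spot (58717 non-control spots) from Feature Extraction 11.0.1.1, background-corrected, with a flag for spots well above background. A deposited table of log2 values, whose percentiles were the same in all tissue columns and in both cell columns but differed by up to 1.07 between tissue and cells (normalisation method not given in the sources used here), served as an alternative for comparisons within tissue or cells.

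From the intensity, log2 processed signals minus each array's 75th percentile over non-control spots were computed, outlier spots were dropped, and spots of a probe were averaged. Symbols came from RefSeq accessions: 18355 of 30367 probes matched and 12012 did not. The probe with the highest mean over all arrays stood for a gene. The 4 myocardial arrays were fitted together in limma 3.58.1 (R 4.3.3; Benjamini-Hochberg), checked on simulated data. Counts use 2-fold, on both treated arrays where they enter. Promoters are RefSeq's, build GRCr8; the headers name rn4, from which no coordinate was used. Arrays give no counts, so their number limits the precision.

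The text names Col1a1, Col1a2, Col3a1, Col4a1, Col6a2, every collagen 2-fold apart or measured on 1 side, and the 5 highest and 5 lowest of each comparison. Of the other lists at most 4 genes 2-fold apart are named, unless stated. Some genes of these lists that went another way, were the brightest or were near background are named as well, but not all of them. Alternatives were quantile normalisation, normexp (offset 50, on the median signal), the deposited table, no filter, probe means, leaving out a treated replicate, a 1.5-fold threshold and limma's trended, robust variance. Members, lists and tests were chosen with earlier results of these data known. Figures were drawn with matplotlib 3.10.9.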

Additional observations from a re-analysis of the deposited data

How the results depend on the processing

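Of 108 recomputed medians and counts that answer a comparison, 15 moved by more than the limit used, which was the SD between the treated replicates' medians or 1.5 times a count. The treated-against-PBS median stayed below 0, at -0.32 and -0.11 without a treated replicate and -0.31 in the deposited table; the treated-against-sham median was 0.01 to 0.10 without a replicate. In PBS against sham the collagen median was 0.06 with normexp. One gene each way was 2-fold apart without a filter on dim probes (1 higher, 1 lower), and 1 was higher at 1.5-fold. In treated against sham the median was 0.13 with quantile normalisation and -0.07 with normexp. In labelled against unlabelled cells 3 collagens were lower at 1.5-fold. The count 2-fold lower in cells than in myocardium was 2 without the filter, 1 with probe means and 1 at 1.5-fold. Limma called 82 features with normexp and 58 with trended, robust variance for treated against PBS, and 50, 51 and 2 (deposited table) for treated against sham; none was a collagen, the lowest adjusted p of a collagen being 0.322. No paired analysis was possible because only the treated group has more than 1 array. The SDs of treated values rest on 2 arrays, and collagens near background (Col7a1, Col23a1, Col26a1) have no firm differences.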
